A study of Mus musculus with 12 samples.

Results

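The heat shock proteins and their co-chaperones were followed in mouse pancreatic tumours treated with an inhibitor of focal adhesion kinase. The group holds 34 genes of 37074 gene names on the array, taken by matching the gene name of each non-control probe, and 71 probes carried those names. The tumours came from female C57BL/6 mice bearing orthotopic KP tumours, labelled 8 weeks of age. One group of 6 received vehicle for 14 days, and the other group of 6 received the inhibitor, labelled FAKi, by gavage at 50 mg/kg for 14 days. Total RNA of each tumour was labelled with Cy5 and hybridised to a one-colour Agilent array. The labels expand neither KP nor FAKi and do not say how the tumours were established. They number the tumours within a group without stating that each came from a different mouse, so the p-values below measure the spread between these 12 samples. The detection filter asked for a probe well above background on at least 6 of 12 arrays. All 7 epithelial markers and all 6 fibroblast markers that were checked passed it. So did 9 of 11 acinar genes of the normal pancreas, and the tumours are therefore taken as mixed tissue. In such tissue, fewer cells of a type and less RNA per cell cannot be told apart.

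Chaperones bind unfolded proteins and help them reach or keep their shape. HSP70 proteins hold short exposed stretches of a client in a cycle that J proteins start and exchange factors end, HSP90 proteins finish the folding of kinases and receptors, and small heat shock proteins keep damaged clients from clumping. Heat shock factor 1, HSF1, switches on the inducible members when misfolded protein builds up in the cytosol, whereas the reticulum has its own sensors that raise the reticulum chaperones. Many tumours are known to carry high levels of these proteins, which buffer mutated or overproduced clients.

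The regulatory letters of the group are shown first, since 12 of the 26 genes searched share them. A 300-base promoter window, 250 bases before to 50 after a transcript start, was present in the RefSeq set used (build GRCm38.p6) for 26 of the 34 genes, in 36 windows. The 8 genes not searched were Hspa8, Hspa9, Hspa13, Hsp90aa1, Hsp90ab1, Hspb2, Cryab and Hsf1. The letters GAANNTTC and TTCNNGAA, each the pairing of an inverted GAA with its partner and each reading the same on both strands, are the core of the element that HSF1 binds. They were present in 13 of the 36 windows (36.1%), against 15.1% of all 32851 windows in the same RefSeq set, and matches may overlap. At least 2 matches were found in 5 of the 36 windows (13.9%) and in 1.96% of all windows. The 5 were the overlapping windows 1 and 2 of Hsph1, windows of Hspd1 and Hspe1 that share 285 bases, and that of Hspb1. The windows of Hspa1a and Hspa1b are near-identical as well. Both member shares therefore count some sequence more than once. The 12 genes with a match were Hspa1a, Hspa1b, Hsph1, Hspb1, Hspb3, Hspb6, Hspb8, Dnaja1, Dnajb4, Bag3, Hspd1 and Hspe1. Hspa1a (chr17:34972157-34972406, minus strand) and Hspa1b (chr17:34959239-34959488, minus strand) are shown over the 250 bases before their starts, because these are the genes with the largest differences below. Capitals mark the matches.
Hspa1a: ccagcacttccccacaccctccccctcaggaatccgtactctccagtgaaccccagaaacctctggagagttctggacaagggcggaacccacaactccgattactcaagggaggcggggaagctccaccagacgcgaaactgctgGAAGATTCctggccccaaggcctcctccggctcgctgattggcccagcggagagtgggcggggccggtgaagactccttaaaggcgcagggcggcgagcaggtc
Hspa1b: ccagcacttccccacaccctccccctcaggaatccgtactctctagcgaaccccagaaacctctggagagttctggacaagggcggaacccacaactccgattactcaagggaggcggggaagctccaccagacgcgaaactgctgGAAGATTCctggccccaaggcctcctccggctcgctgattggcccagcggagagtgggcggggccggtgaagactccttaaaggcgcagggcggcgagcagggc
Over all 300 aligned bases the pair differed at 4, an identity of 98.7%, and 3 of those differences lie in the stretch shown, at positions 44, 47 and 249 from its 5′ end. The promoter of Hspa1l, a germ cell relative, starts beside that of Hspa1a on the opposite strand and held no match.

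Shorter stretches are shown for other members whose roles recur below. Hsph1 (HSP110, an exchange factor for HSP70; chr5:149636352-149636379, minus strand), Hspb1 (HSP25, a small heat shock protein; chr5:135887792-135887839, plus strand), Dnajb4 (a J protein; chr3:152193846-152193869, minus strand) and Hspe1 (the lid of the mitochondrial chaperonin; chr1:55088049-55088086, plus strand) carried the heat shock letters, in capitals. In Hspe1, 3 overlapping matches form 1 run of alternating units.
Hsph1: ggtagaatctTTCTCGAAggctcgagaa
Hspb1: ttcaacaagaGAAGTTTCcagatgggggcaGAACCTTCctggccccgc
Dnajb4: tcgttcgctgTTCTAGAAagtaca
Hspe1: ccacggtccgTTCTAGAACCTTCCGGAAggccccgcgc
The Hspe1 window overlaps a window of its partner Hspd1 by 285 bases on the opposite strand, so that both mitochondrial genes share these letters. The reticulum stress element was searched on both strands as CCAAT, any 9 bases and then CCACG. It was found in 2 of the 36 windows, those of Hspa5 (chr2:34772015-34772053, plus strand) and Hsp90b1 (minus strand), and in 0.119% of all windows. Hsp90b1 carried it once on its own strand (chr10:86705628-86705666) and once reversed nearer to its start (chr10:86705523-86705561). Capitals mark the element.
Hspa5: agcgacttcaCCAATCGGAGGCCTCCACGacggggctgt
Hsp90b1, first copy: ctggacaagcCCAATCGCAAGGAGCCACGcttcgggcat
Hsp90b1, reversed copy: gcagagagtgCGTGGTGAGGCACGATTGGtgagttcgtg
A match describes the letters and does not show that a factor bound there.

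Some features of the arrays bear on the members. The 75th percentile of the log2 signal ranged from 11.82 (vehicle 6) to 13.88 (vehicle 1), and 66.6% to 76.1% of the probes were well above background. Where probes lay apart along 1 transcript, the most 5′ of them was set against the most 3′, which need not lie at its ends. The 5′-ward probe read lower against the 3′-ward probe in vehicle 5, vehicle 6 and FAKi 6 than in the other tumours. With each gene centred over the tumours, the median over 4504 genes was -0.83, -0.28 and -0.60 in these and 0.085 to 0.44 in the rest. The arrays lay on 5 slides, of which slide 1 (vehicle 3, vehicle 5 and FAKi 5) and slide 4 (vehicle 2, vehicle 6 and FAKi 1) held both groups. Levels are given throughout as log2 signal minus the array's 75th percentile, so that a level of 0 is the signal at that percentile, and levels of different genes are not compared.

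No chaperone gene differed between the groups after adjustment. Of the 34 genes, 33 passed the detection filter. In limma's moderated test with Benjamini-Hochberg adjustment over 27374 genes, 0 of the 33 were called at an adjusted p under 0.05, and 0% of all genes were (the smallest adjusted p was 0.354 over all genes and 0.9994 over the 33). At an unadjusted p under 0.05, 1 of the 33 (3.03%) passed, against 4.79% of all genes (2.71% higher and 2.08% lower with FAKi), so the group's share lay near the background. In 0 of the 33 did the 2 groups not overlap, against 0.238% of all genes. The FAKi mean was higher in 16 and lower in 17, with a median log2 difference of -0.038, while 60.5% of all genes were higher and their median was 0.083. The precision was limited: the 95% interval spanned more than 1 log2 unit in 27 of the 33.

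**Figure D1:**
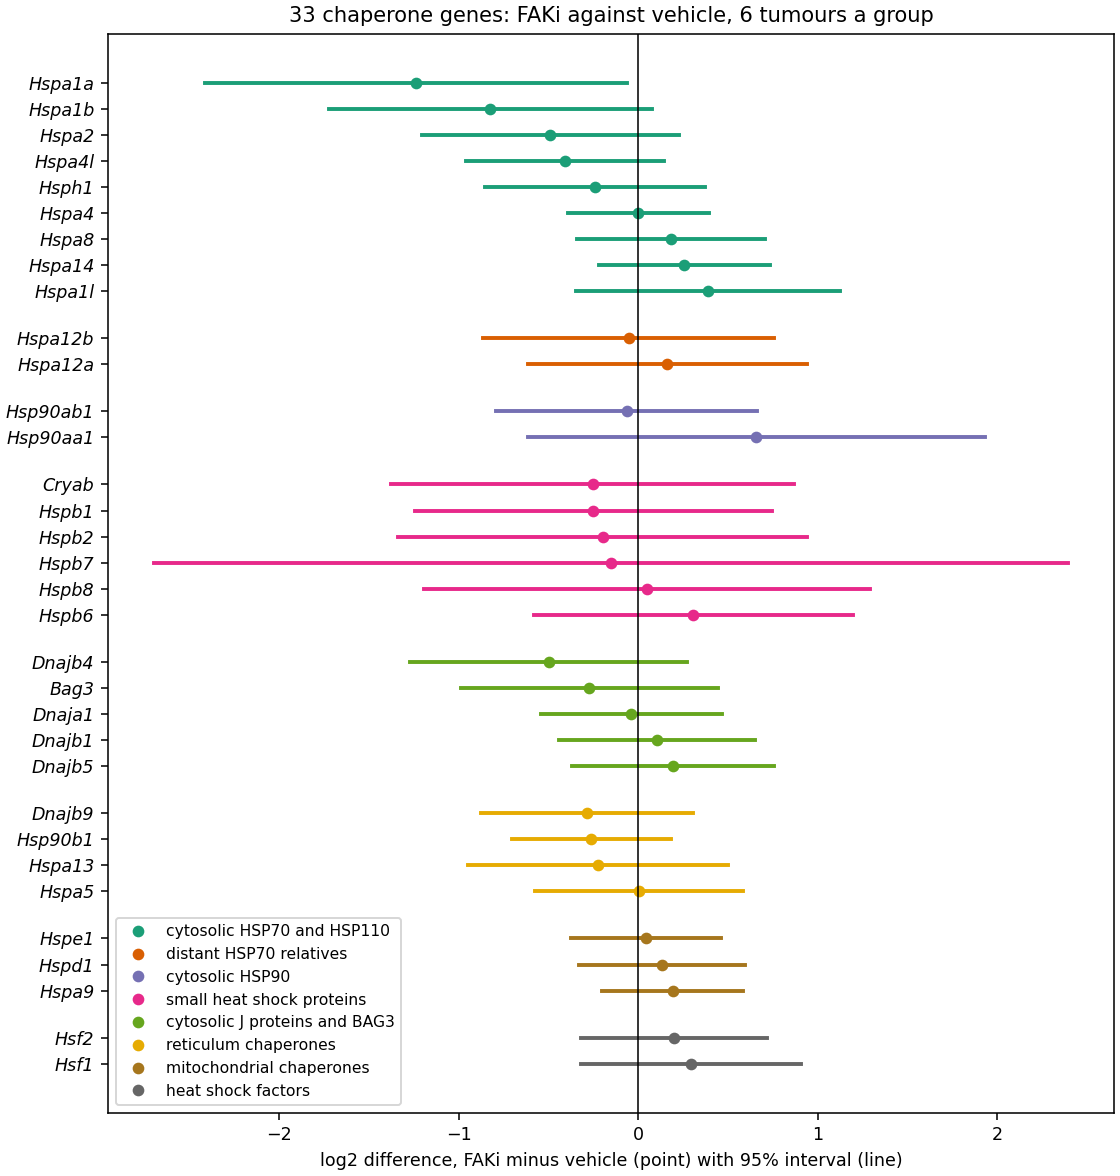
Log2 difference between FAKi and vehicle tumours (points) with 95% intervals from limma (lines) for 33 chaperone genes, coloured by class, 6 tumours a group. Every interval except that of Hspa1a (-2.41 to -0.061) crosses 0, and the Hspb7 interval (-2.70 to 2.40) is the widest.

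The stress-inducible HSP70 genes Hspa1a and Hspa1b were lower with FAKi, and neither difference passed the adjusted test. They encode near-identical cytosolic HSP70 proteins that are scarce in resting cells and made within minutes of proteotoxic stress. Hspa1a (probe at chr17:35106766-35106825, minus strand, mm9 in the files) had a lowest, median and highest level of -1.41, -0.093 and 1.20 in vehicle tumours and of -2.71, -1.22 and 0.18 in FAKi tumours. The lowest values were those of FAKi 4 (-2.71) and FAKi 5 (-2.65), which lay below every vehicle tumour, whereas the other 4 FAKi tumours lay inside the vehicle range. The group means were -0.061 ± 0.88 and -1.30 ± 1.21 (SD, n = 6 each), a log2 difference of -1.24 (SE 0.55), or a level 2.36-fold lower. Its unadjusted p was 0.0407 and its adjusted p 0.9994 by limma, and 2.08% of all genes reached an unadjusted p under 0.05 in this direction. Hspa1b (probe at chr17:35093374-35093405, minus strand, mm9) ran from 0.18 over a median of 1.48 to 2.33 with vehicle and from -0.29 over 0.73 to 1.44 with FAKi. All 6 FAKi tumours lay below the vehicle mean of 1.44 ± 0.77 (SD), and 2 of them below the lowest vehicle tumour. Its log2 difference was -0.82 (SE 0.42, unadjusted p 0.0691).

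Both differences kept their sign within slides and with slide as a block. Within slide 1 the Hspa1a difference was -2.04 and within slide 4 it was -0.23, each from 2 vehicle tumours and 1 FAKi tumour. The corresponding values of Hspa1b were -1.42 and -0.35. With slide as a block, the log2 difference of Hspa1a was -1.13 (unadjusted p 0.185) and that of Hspa1b was -0.88 (0.199), and with slide as a random block they were -1.23 (0.0421) and -0.82 (0.0717). Leaving out vehicle 1, vehicle 2, vehicle 5, FAKi 2, FAKi 4, FAKi 5 or FAKi 6, one at a time, left Hspa1a with an unadjusted p above 0.05, with differences of -1.26 to -0.96. Over all 12 such fits its difference lay between -1.53 and -0.96. Immediate early genes such as Fos and Egr1, which respond within minutes to handling of tissue, were checked beside these values. None of the 9 was called, 6 were higher and 3 lower with FAKi, and their mean level, centred over the tumours, spanned -0.82 to 0.93 in vehicle and -0.38 to 0.40 in FAKi tumours. The highest of these means and the highest Hspa1a level were both in vehicle 2. The part of these genes in the Hspa1a values was not tested.

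**Figure D2:**
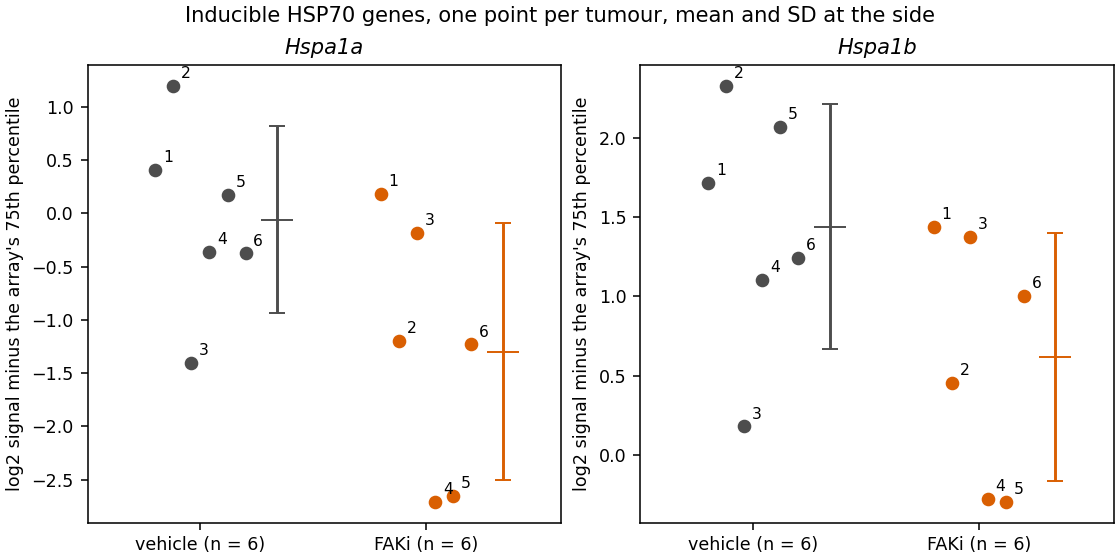
Level of Hspa1a (left) and Hspa1b (right) in each of 12 tumours as log2 signal minus the array's 75th percentile, with the tumour's number beside its point and the group's mean and SD at the side. FAKi 4 and FAKi 5 are the lowest points of both genes, and vehicle 3 is the lowest vehicle tumour of both.

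Hspa1a and Hspa1b varied together from tumour to tumour. Over the 12 tumours Pearson's r was 0.96 and Spearman's rho 0.96, each with a permutation p of 1e-05, the smallest that 100000 resamples can give, and 0.00012 after adjustment over 24 correlations of 12 gene pairs. It was 0.96 within the vehicle tumours (exact permutation p 0.00833) and 0.97 within the FAKi tumours (exact permutation p 0.00556). Without the 2 tumours farthest from the median of Hspa1a, r was 0.93. The 60-base probes of both genes share no run longer than 5 bases, although each was not searched against the whole transcript of the other gene. The constitutive HSP70 gene had no lower mean with FAKi, and its correlation with Hspa1a and Hspa1b was not computed. Hspa8 (HSC70, the housekeeping HSP70 that carries out routine folding and uncoats vesicles) ran from 4.78 over 5.66 to 6.16 with vehicle and from 5.41 over 5.75 to 6.03 with FAKi, and its log2 difference was 0.18 (SE 0.24). By this probe every FAKi tumour lay inside the vehicle range, with vehicle 1 lowest and vehicle 6 highest, the arrays of highest and lowest 75th percentile. The 4 kept Hspa8 probes gave differences from 0.11 to 0.30 but ordered the tumours differently. In another of them vehicle 6 was the lowest tumour (4.09), and FAKi 3 (4.76), FAKi 4 (4.84) and FAKi 5 (4.91) lay above every vehicle tumour. In a further one FAKi 1 (4.39), FAKi 3 (4.60), FAKi 4 (4.88) and FAKi 5 (4.50) lay above every vehicle tumour and FAKi 6 (3.49) below. The part of the scaling was not tested. With each gene centred over the tumours, Hspa1b minus Hspa8 averaged 0.50 ± 0.91 over the vehicle tumours and -0.50 ± 0.97 with FAKi (mean ± SD over 6 tumours), a description with no test.

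The other HSP70 genes gave small differences of both signs. Hspa2, best known from spermatocytes, differed by -0.49 (SE 0.33) and Hspa4l, an HSP110 of the testis, by -0.41 (SE 0.26), with 5 of 6 FAKi tumours below the vehicle mean in each. Hspa14, a ribosome-associated HSP70, differed by 0.26 (SE 0.22) and Hspa1l by 0.39 (SE 0.34). The exchange factor Hsph1 differed by -0.24 (SE 0.28). Hspa4, a further HSP110, had means of 2.69 in both groups and a difference of 0.00047 with a 95% interval from -0.39 to 0.39. Its within-group SD of 0.18 exceeded that of only 0.66% of all genes tested, while that of Hspa1a (1.06) exceeded 87.9%.

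The distant relatives Hspa12a and Hspa12b differed by less than their standard errors. Hspa12a ran from -3.14 over -1.77 to -1.32 with vehicle and from -2.38 over -2.05 to -1.08 with FAKi, a log2 difference of 0.16 (SE 0.36). Hspa12b, which is enriched in endothelial cells, ran from -2.64 over -1.83 to -0.44 with vehicle and from -2.44 over -1.90 to -1.16 with FAKi, a log2 difference of -0.054 (SE 0.38). Both groups overlapped, and Hspa12b was highest in vehicle 5 and lowest in vehicle 1. The endothelial markers, read beside it, had their highest mean (1.33) in vehicle 5 and their lowest (-0.85) in vehicle 1. All 7 of them were lower with FAKi, with a median log2 difference of -0.34, and 0 were called. Their part in the Hspa12b values was not tested.

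Hsp90aa1, the stress-responsive cytosolic HSP90, separated 3 tumours from the rest in place of the treatment groups. It ran from 0.90 over 3.61 to 3.90 with vehicle and from 1.85 over 3.85 to 4.28 with FAKi, with a log2 difference of 0.66 (SE 0.59, unadjusted p 0.285). The difference was 0.13 (unadjusted p 0.621) without vehicle 5, vehicle 6 and FAKi 6 and 0.27 without vehicle 6 alone. Vehicle 6 (0.90), vehicle 5 (1.35) and FAKi 6 (1.85) lay far below the other 9 tumours, which ranged from 3.06 to 4.28. These are the tumours whose 5′-ward probes read low over the whole array. A probe of Hsp90aa1 nearer to the 3′ end read 1.30, 1.63 and 1.74 in them and 2.75 to 3.75 in the others, so both probes placed them lowest. The constitutive Hsp90ab1 ran from 4.76 over 5.85 to 7.17 with vehicle and from 5.39 over 5.97 to 6.23 with FAKi, a log2 difference of -0.064 (SE 0.34) that was 0.29 without the same 3 tumours. There vehicle 6 was the highest tumour and vehicle 1 the lowest, so by these levels the pair of HSP90 genes ordered the tumours differently. Vehicle 6 also had the lowest 75th percentile (11.82) and vehicle 1 the highest (13.88), the value subtracted from each level of an array. The parts of probe position and of this scaling in these values were not tested.

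**Figure D3:**
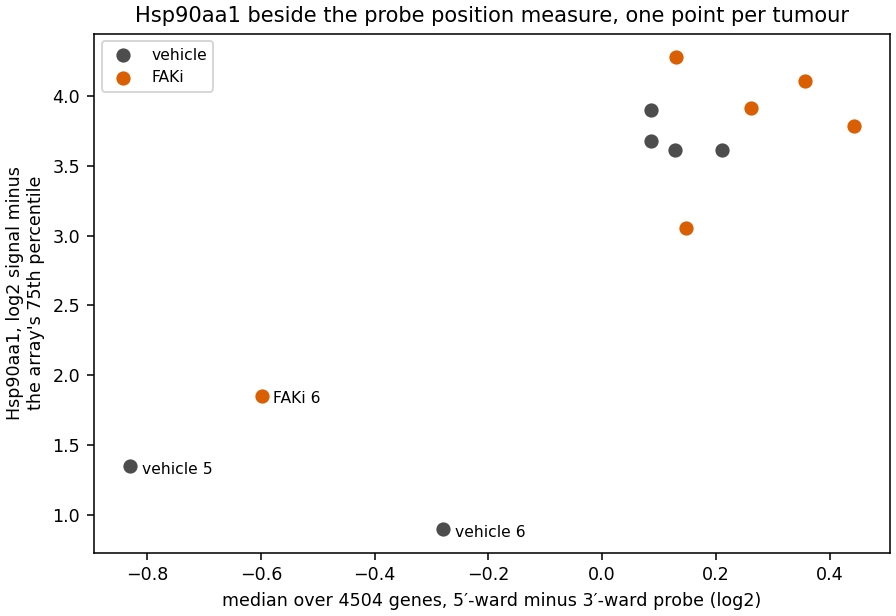
Level of Hsp90aa1 (log2 signal minus the array's 75th percentile) against the median difference between 5′-ward and 3′-ward probes over 4504 genes (log2), 1 point a tumour, vehicle and FAKi by colour. Vehicle 5, vehicle 6 and FAKi 6 lie low on both axes, and the other 9 tumours lie together at the upper right.

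The small heat shock proteins had a higher median SD within groups (1.01) than the other classes (0.23 to 0.87), and FAKi 3 held the highest level of all 6 that were tested. Of the 7 listed, 0 were called and the median log2 difference was -0.17. The SD exceeded that of 99.6% of all genes for Hspb7, 89.6% for Hspb8, 86.8% for Hspb2 and 86.2% for Cryab. Hspb7, a chaperone of heart and skeletal muscle sarcomeres, was at 2.79 in FAKi 3 and at -0.69 in FAKi 1, and between -4.85 and -4.36 in the other 4 FAKi tumours. The vehicle tumours lay between, from -4.13 to -1.05. Cryab, αB-crystallin, which guards desmin filaments in muscle and the eye lens, was at 5.06 in FAKi 3 and 3.80 in FAKi 1, against 1.47 to 2.42 in the other FAKi and 2.56 to 3.70 in the vehicle tumours. Hspb8, the partner of BAG3, peaked at 1.73 in FAKi 3 and was lowest, at -2.58, in FAKi 6.

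Skeletal muscle markers were high in the same tumour. The mean of the 10 markers, each centred over the tumours, was 4.12 in FAKi 3, 0.89 in FAKi 1 and -1.43 to -0.89 in the other FAKi tumours. In vehicle tumours it ranged from -1.92 in vehicle 3 to 1.82 in vehicle 6. Hspb7, Cryab and Hspb6 were highest for their group in vehicle 6, where Hspb8 was lowest (-0.996). Hspb8 and Hspb2 were highest in vehicle 5, where the marker mean was -0.048, and Hspb1 was highest in vehicle 3. All 10 markers passed the detection filter, 7 were higher and 3 lower with FAKi, and 0 were called. Smooth muscle markers were also highest in FAKi 3, at 1.64, against -0.75 to 0.43 in the other 11 tumours. The part of muscle in the small heat shock protein values was not tested. Hspb3, another muscle member, was well above background on 4 arrays and was not tested. Its probe read -2.54 in FAKi 3, against -8.66 to -5.26 in the other FAKi and -8.24 to -5.44 in the vehicle tumours.

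**Figure D4:**
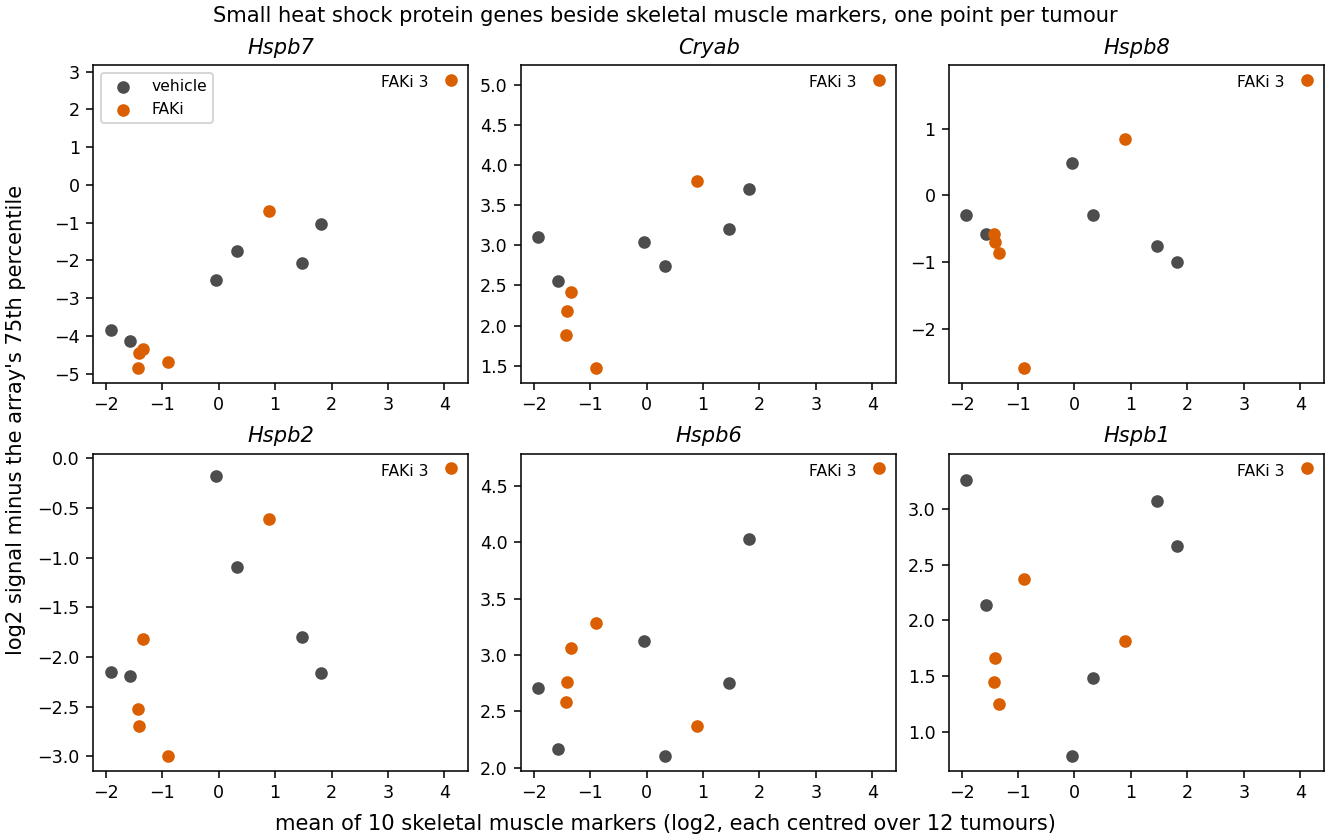
Levels of 6 small heat shock protein genes (log2 signal minus the array's 75th percentile) against the mean of 10 skeletal muscle markers (log2, centred over 12 tumours), 1 point a tumour, vehicle and FAKi by colour. FAKi 3 is the rightmost and highest point in every panel, and Hspb7 is lowest in tumours at the left.

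Hspb6 and Hspb1 are the small heat shock proteins of smallest p beside these. Hspb6, HSP20, a relaxant of smooth muscle, ran from 2.10 over 2.73 to 4.03 with vehicle and from 2.37 over 2.91 to 4.66 with FAKi, a log2 difference of 0.31 (SE 0.41). Without FAKi 3 the difference was -0.00080. A second probe nearer to its 5′ end gave a difference of 0.93 and read lowest in vehicle 5, FAKi 6 and vehicle 6, and the mean of both probes gave 0.62. Hspb1, the widely expressed HSP25, ran from 0.78 over 2.41 to 3.26 with vehicle and from 1.25 over 1.74 to 3.37 with FAKi, a log2 difference of -0.25 (SE 0.46). Both groups overlapped, with FAKi 3 the highest tumour of each gene. Cryab and Hspb2, neighbouring genes on chromosome 9, had an r of 0.74 over the 12 tumours (permutation p 0.00439, adjusted p 0.0207; rho 0.76, adjusted p 0.0207). Their r was -0.19 within vehicle and 0.97 within FAKi tumours, 0.51 without the 2 tumours farthest from the median, and 0.63 without FAKi 3 (adjusted p 0.107), so that its call rested on those tumours. Without vehicle 5, vehicle 6 and FAKi 6 it was 0.88 (adjusted p 0.00955).

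Among the J proteins and BAG3, Dnajb4 and Bag3 had the smallest p. Dnajb4 ran from -0.27 over 0.61 to 1.58 with vehicle and from -0.56 over -0.14 to 1.01 with FAKi, a log2 difference of -0.50 (SE 0.36, unadjusted p 0.187). The FAKi values split between FAKi 1 and FAKi 3, near 1, and the other 4 tumours, below 0. Its 5 kept probes disagreed in sign, with log2 differences from -0.50 to 0.59, and their mean gave -0.0035. The positive probes, both at 0.59, were dim and well above background on only 10 and 7 arrays. The others, at -0.50, -0.36 and -0.34, were so on all 12. Bag3, which links HSP70 to small heat shock proteins and to selective autophagy, ran from -2.0 over -0.35 to 0.12 with vehicle and from -1.40 over -0.80 to -0.21 with FAKi, a log2 difference of -0.27 (SE 0.33). Vehicle 6 alone lay below all FAKi tumours, and 5 of 6 FAKi tumours lay below the vehicle mean. Dnaja1, Dnajb1 and Dnajb5, the partners that load clients onto HSP70, differed by -0.038 (SE 0.23), 0.10 (SE 0.25) and 0.19 (SE 0.26). Hsph1 and Dnajb1, which disaggregate proteins together with HSP70, had an r of 0.73 (permutation p 0.00684, adjusted p 0.0207; rho 0.75). It was 0.67 without the 2 farthest tumours and 0.26 without vehicle 5, vehicle 6 and FAKi 6, the 3 tumours highest in Dnajb1.

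The reticulum chaperones were slightly lower with FAKi in 3 of 4 genes and 0 were called. Hsp90b1, or GRP94, which folds integrins and Toll-like receptors, ran from 3.56 over 4.05 to 4.61 with vehicle and from 3.72 over 3.82 to 4.06 with FAKi. All 6 FAKi tumours lay below the vehicle mean of 4.10 ± 0.36 (SD), yet none lay below the lowest vehicle tumour, and the log2 difference was -0.26 (SE 0.21, unadjusted p 0.225). Dnajb9, a J protein that holds the reticulum sensor IRE1 inactive, ran from 0.55 over 1.36 to 1.91 with vehicle and from 0.58 over 0.88 to 1.72 with FAKi, a log2 difference of -0.29 (SE 0.27). The kept probes of Dnajb9 disagreed in sign (-0.29 and 0.11), and their mean gave -0.088. In both genes the 2 groups overlapped, and vehicle 5 was the highest tumour. Hspa5, or BiP, the main HSP70 of the reticulum, ran from 3.94 over 4.64 to 5.49 with vehicle and from 4.42 over 4.71 to 5.11 with FAKi. Its log2 difference was 0.0043 (95% interval -0.57 to 0.58), with vehicle 1 lowest and vehicle 6 highest. These arrays had the highest and the lowest 75th percentile, and the part of the scaling was not tested. The sign of the Hspa5 difference turned under quantile normalisation (-0.060), median centring (-0.031) and in the authors' deposited table (-0.050). Hspa13, a microsomal HSP70, differed by -0.22 (SE 0.34). Although Hspa5 and Hsp90b1 carry the same reticulum element, their r was 0.50 (permutation p 0.0960, adjusted p 0.192; rho 0.45). It was 0.72 (adjusted p 0.0358) with the mean of a gene's probes. The r of Hspa5 with Dnajb9 was -0.25 (permutation p 0.438, adjusted p 0.618; rho -0.34).

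The mitochondrial chaperones had the lowest median SD within groups of any class (0.23), all 3 with a FAKi mean slightly above that of vehicle and 0 called. Hspa9, mortalin, the HSP70 that pulls proteins into the mitochondrion, ran from 1.75 over 2.003 to 2.21 with vehicle and from 1.93 over 2.22 to 2.43 with FAKi, a log2 difference of 0.19 (SE 0.18, unadjusted p 0.310). Its within-group SD of 0.18 exceeded that of only 0.61% of all genes. Hspd1, HSP60, the barrel of the chaperonin, ran from 4.08 over 4.55 to 5.03 with vehicle and from 4.41 over 4.72 to 4.93 with FAKi, a log2 difference of 0.13 (SE 0.22). In each of these genes 5 of 6 FAKi tumours lay above the vehicle mean and the groups overlapped. The lid gene Hspe1 differed by 0.043 (SE 0.19) and was highest in FAKi 6. Despite their shared promoter, Hspd1 and Hspe1 had an r of 0.42 (permutation p 0.175, adjusted p 0.300; rho 0.59). It became -0.67 (permutation p 0.0129, adjusted p 0.0388) where the mean of all kept probes stood for a gene. The kept probes of Hspe1 include a dim one that ran from -3.76 in vehicle 6 to -0.15 in vehicle 1. Hspa9 and Hspd1 had an r of 0.20 (permutation p 0.537, adjusted p 0.716; rho 0.15).

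The 3 compartments were set side by side as the design allows, with no test over the members. The median log2 difference was -0.11 for the 22 cytosolic genes tested of 23 (9 higher, 13 lower), -0.24 for the 4 reticulum genes and 0.13 for the 3 mitochondrial ones, against 0.083 over all genes. The mean of the reticulum minus that of the mitochondrial genes, each gene centred, averaged 0.16 ± 0.31 with vehicle and -0.16 ± 0.28 with FAKi (mean ± SD over 6 tumours), and the ranges overlapped. The order did not hold within slide 4. The reticulum median was -0.67 within slide 1 and 0.061 within slide 4, and the mitochondrial one was 0.13 over all tumours but -0.15 within slide 4 and -0.079 in the fit that blocks on slide. The cytosolic median turned to 0.12 with array weights, 0.18 without vehicle 5, vehicle 6 and FAKi 6, and 0.012 without vehicle 5, where the reticulum median was -0.064. The cytosolic mean per tumour was highest in FAKi 3 (0.75) and lowest in FAKi 5 (-0.50), so FAKi tumours held both ends. By class, the FAKi 3 mean was 2.37 for the small heat shock proteins. It was 0.51 for cytosolic HSP90, 0.11 for J proteins and BAG3 and 0.070 for HSP70 and HSP110.

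**Figure D5:**
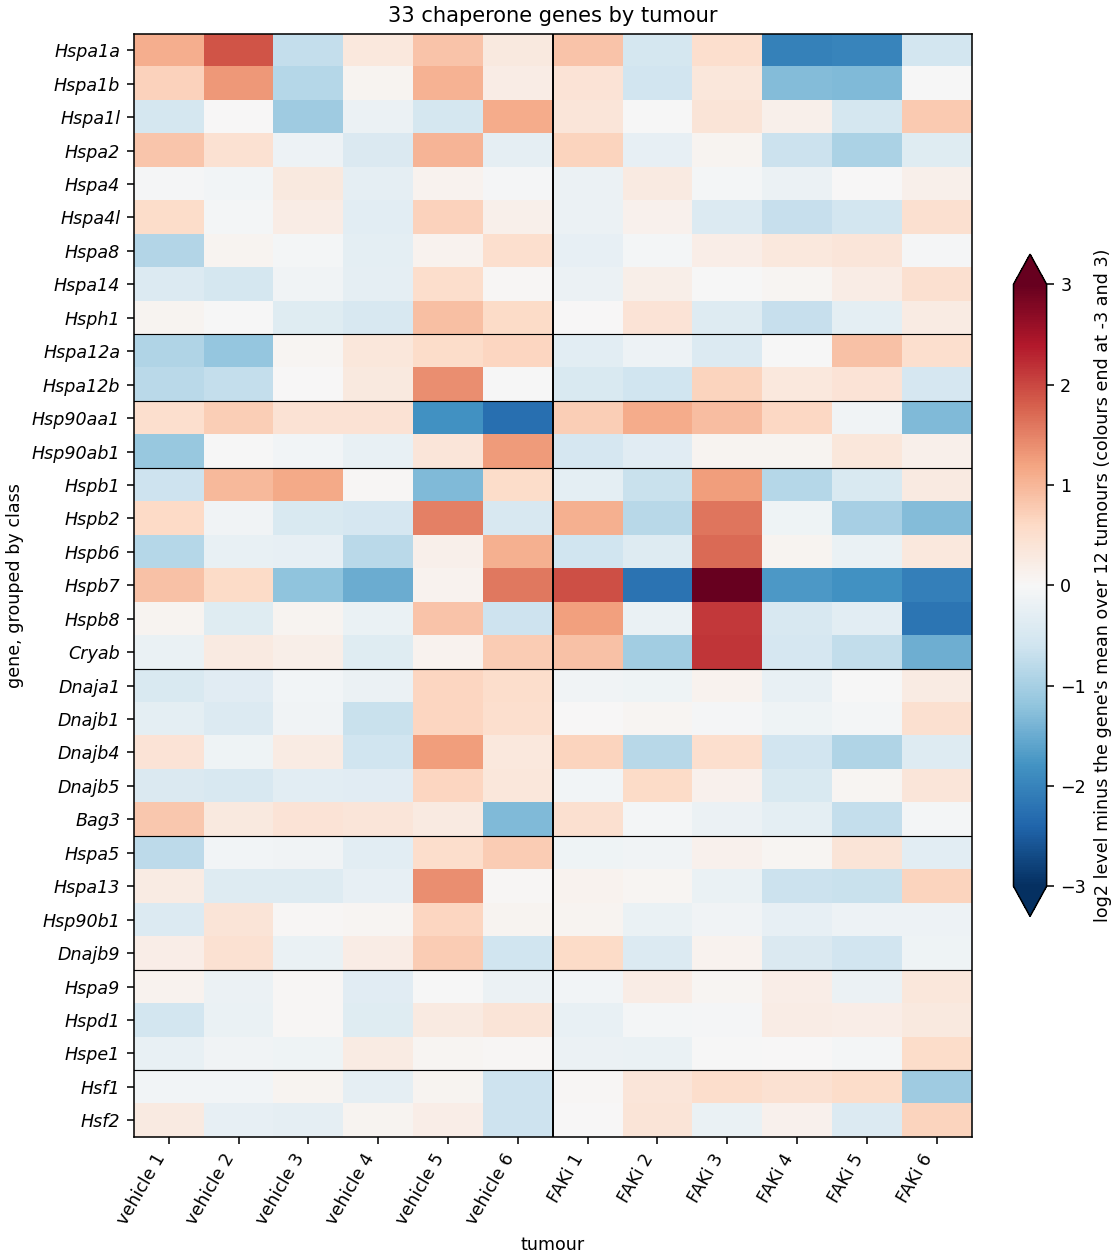
Level of each of 33 chaperone genes (rows, grouped by class) in each of 12 tumours (columns, vehicle left of the line) as log2 difference from the gene's own mean over the tumours, blue below and red above. Small heat shock protein genes are reddest in FAKi 3, Hsp90aa1 is bluest in vehicle 5, vehicle 6 and FAKi 6, and the mitochondrial genes are pale throughout.

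The heat shock factors differed by less than their SD pooled from both groups, 0.48 for Hsf1 and 0.37 for Hsf2. Hsf1, the master regulator of the cytosolic response, ran from 1.32 over 1.85 to 2.02 with vehicle and from 0.87 over 2.35 to 2.48 with FAKi, a log2 difference of 0.29 (SE 0.28, unadjusted p 0.321). In 5 of 6 FAKi tumours it lay above the vehicle mean of 1.78 ± 0.26 (SD). Of these, 4 lay above every vehicle tumour, and FAKi 6 lay below every vehicle tumour. Hsf2, a partner that binds the same element, ran from -3.01 over -2.46 to -2.11 with vehicle and from -2.78 over -2.31 to -1.71 with FAKi, a log2 difference of 0.20 (SE 0.24). Both groups overlapped. HSF1 is governed mainly after it is made, so its message level is no measure of its activity. Of the 11 tested genes with heat shock letters in their window, 4 were higher and 7 lower, with a median log2 difference of -0.24. Of the 14 searched and tested genes without them, 8 were higher and 6 lower, with a median of 0.0024. Genes with no window to search, Hsf1 among them, are in neither count.

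The wider network gave no called gene either. Of 11 HSP90 co-chaperones, 7 were higher and 4 lower with a median log2 difference of 0.15, led by Ptges3 (p23, 0.40, SE 0.21) and Ahsa1, which speeds the HSP90 ATPase (0.24, SE 0.19). Of 14 HSP70 co-chaperones, 8 were higher and 6 lower with a median of 0.083, and Bag2, an exchange factor that blocks the ligase CHIP, was the only one with an unadjusted p under 0.05 (0.46, SE 0.20, p 0.0357). Hspbp1, another exchange factor, differed by 0.59 (SE 0.40). Of the 8 TRiC subunits, the cytosolic chaperonin that folds actin and tubulin, 7 were higher with a median of 0.16, led by Cct8 (0.37, SE 0.19) and Cct7 (0.32, SE 0.23).

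Other regulators and targets of HSF1 were split, 4 higher and 4 lower of 8 tested of 9. Hmox1, the haem-degrading enzyme induced by oxidants, differed by -0.69 (SE 0.27, unadjusted p 0.0234) and Hsf4 by -0.41 (SE 0.28). Of 25 genes of reticulum folding and the unfolded protein response, 6 were higher and 19 lower, with a median of -0.096 and 0 with an unadjusted p under 0.05. Ern1, the sensor IRE1, differed by -0.67 (SE 0.31, unadjusted p 0.0521) and Dnajc3, an inhibitor of the sensor PERK, by -0.64 (SE 0.38). Of 13 genes of mitochondrial folding and proteolysis, 9 were higher and 4 lower, with a median of 0.13. Trap1, the HSP90 of mitochondria, was higher in all 6 FAKi tumours than in any vehicle tumour (0.238% of all genes did not overlap between the groups), with means of 2.26 and 1.71 and a log2 difference of 0.55 (SE 0.21, unadjusted p 0.0218, adjusted p 0.9994). Clpp, a matrix protease, differed by 0.32 (SE 0.17). The acinar markers, 9 of 9 higher with a median of 0.42, and the proliferation markers, 6 of 6 higher with a median of 0.29, lay in the same direction as most mitochondrial and TRiC genes, and their part was not tested.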

How the data were processed

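Total RNA of 12 tumours was profiled on one-colour (red, Cy5) Agilent arrays, 6 vehicle and 6 FAKi. The values used are the processed signal intensity of each spot from the scanner, deposited by the authors and, per the file headers, already background-corrected. Probe coordinates are mm9, per the file headers. The authors' deposited table holds log2 values of the same arrays, and the submitters' processing notes name limma, giving no version. Its normalisation is not stated in the labels or headers, and it served as an alternative.

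Control spots (leaving 59305) and outlier spots were dropped, 0 spots were saturated, and log2 signals were reduced by each array's 75th percentile. Spots of a probe were averaged. Of 56605 probes, 40459 were well above background on at least 6 of 12 arrays, and the brightest such probe of a gene stood for it (8 of 16 genes with several kept probes had differences of both signs). Groups, taken from the labels, were compared with limma 3.58.1 in R 4.3.3 (lmFit, eBayes, Benjamini-Hochberg over 27374 genes, threshold 0.05). The methods were tested on simulated data. Gene pairs were correlated over tumours with two-sided permutation tests in Python 3.11.15. Named genes were those with an unadjusted p under 0.05, the 2 of smallest p in each class or list, and Hspa1a, Hspa1b, Hspa5, Hspd1, Hsp90aa1 and Hsf1. Other members singled out by their values, such as Hspb7, Cryab and Hspa8, were chosen after their values were seen. The members and lists were chosen with earlier results of these data known. The alternatives changed the normalisation, background correction, filter, probe choice, array weights, variance model, slide block, replicate block and the tumours included. Array number limits the precision. Promoter windows came from RefSeq.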

Additional observations from a re-analysis of the deposited data

Results flagged for a closer look

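In 5 of 66 gene and group combinations the highest or lowest of 6 tumours stood further from its nearest neighbour than Dixon's 95% limit allows, and chance alone gives about 5% of such cases. In FAKi 6, Dnajb1 was at 3.62 (nearest FAKi tumour 3.19), Hspe1 at 4.01 (nearest 3.47) and Hsf1 at 0.87 (nearest 1.97). Bag3 was at -2.0 in vehicle 6 (nearest vehicle tumour -0.41) and Hspa13 at 0.94 in vehicle 5 (nearest -0.20). These 3 tumours are those with low 5′-ward probes over the whole array, and the part of probe position was not tested. Hspb3, outside the tested genes, read -2.54 in FAKi 3, above the highest vehicle tumour at -5.44, in the tumour with the highest skeletal muscle markers.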

How the results depend on the processing

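No member was called under any alternative. Over all genes 3 were called with array weights and 0 to 3 with 1 tumour left out (3 without FAKi 1), otherwise 0. Members with an unadjusted p under 0.05 numbered 5 with array weights (Bag3, Hsf1, Hspa14, Hspa1a, Hspa1b), 0 with slide as a fixed block, 3 without vehicle 5, vehicle 6 and FAKi 6 together (Bag3, Hsf1 and Hspa14, an alternative added after seeing the data) and 0 to 3 with 1 tumour left out, against 1. In the same fits 5039, 494, 4808 and 763 to 3777 of all genes reached that threshold, against 1312. The replicate numbers did not pair the tumours: deviations of equally numbered tumours correlated between -0.12 and 0.48, and only number 6 correlated best with its own. With the replicate block, 2 members (Hsp90aa1 and Hspa1a) had an unadjusted p under 0.05, as did 1670 of all genes.

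Compartment medians moved within slide 1 (reticulum -0.67), within slide 4 (reticulum 0.061, mitochondrial -0.15) and with slide as a fixed block (mitochondrial -0.079). The cytosolic median turned positive with array weights (0.12), without vehicle 5, vehicle 6 and FAKi 6 (0.18) and without vehicle 5 (0.012). Differences that changed sign were all smaller than their SE as reported except those of Dnajb4, Dnajb9 and Hspa9. Hspa5 turned to -0.060 (quantile), -0.031 (median centring), -0.050 (authors' deposited table), -0.053 (mean of probes), -0.15 (slide fixed), -0.000148 (slide random) and -0.46 (slide 4). Array weights gave Hsp90ab1 0.17 and Hspa12b 0.35, and leaving out the 3 tumours 0.29 and 0.37. Slide as a fixed block gave Hspa9 -0.034, Hspd1 -0.13 and Hspb6 -0.59. Slide 1 gave Hsp90ab1 0.19, Hspa9 -0.18, Hsf2 -0.37 and Hspb6 -0.16. Slide 4 gave Dnajb4 0.59, Bag3 0.98, Dnajb9 0.63, Hspd1 -0.33, Hspb6 -1.02 and Hspa12a -0.057. With 1 tumour left out, Hspa5 ranged from -0.15 to 0.16, Hsp90ab1 from -0.30 to 0.18, Hspa12a from -0.057 to 0.31, Hspa12b from -0.22 to 0.22 and Hspb6 from -0.00080 to 0.55. Others kept their sign but moved by over 1.5 times: Hspb1 -0.54 to -0.046, Hsp90aa1 0.27 to 0.99, Bag3 -0.56 to -0.14, Hspd1 0.037 to 0.23, Hsf1 0.20 to 0.54, Hsf2 0.085 to 0.30, Hsp90b1 -0.37 to -0.16, Dnajb4 -0.68 to -0.30 and Dnajb9 -0.44 to -0.17. The cause was not tested.

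Hspa8 and Hsp90ab1 correlated at 0.89 (permutation p 0.00022, adjusted p 0.00176; rho 0.86) after 75th-percentile scaling, but at -0.73 after quantile normalisation and -0.69 in the authors' deposited table, and at 0.52 with probe means. The sign of that relation therefore differed between these ways of processing, and the part of the scaling was not tested. Other correlations moved with probe means and in the authors' table (Hspa5 and Dnajb9 0.025). With probe means Hspd1 and Hspe1 were at -0.67 (adjusted permutation p 0.0388) and Hspa5 and Hsp90b1 at 0.72 (0.0358), both now past the threshold. Without the 2 farthest tumours they were -0.011 for Hspa1b and Dnajb1 (0.081 over all 12, permutation p 0.799, adjusted p 0.913), 0.67 for Hsph1 and Dnajb1, 0.77 for Hspa8 and Hsp90ab1, -0.25 for Hspa9 and Hspd1, 0.079 for Hspa5 and Dnajb9, 0.51 for Cryab and Hspb2 and -0.47 for Hspb1 and Hspb8 (0.060 over all 12, permutation p 0.857, adjusted p 0.935). Within vehicle tumours they were 0.96, 0.89, 0.96, -0.063, -0.19 and -0.73 for Hspa1a and Hspa1b, Hsph1 and Dnajb1, Hspa8 and Hsp90ab1, Hspa9 and Hspd1, Cryab and Hspb2, and Hspb1 and Hspb8. Within FAKi tumours they were 0.97, 0.66, 0.84, -0.15 and 0.97 for Hspa1a and Hspa1b, Hsph1 and Dnajb1, Hspa8 and Hsp90ab1, Hspa5 and Hsp90b1, and Cryab and Hspb2, with 6 tumours each. Without vehicle 5, vehicle 6 and FAKi 6 they were -0.40 for Hspa1b and Dnajb1, 0.26 for Hsph1 and Dnajb1 and 0.42 for Hsp90aa1 and Hsph1 (-0.66 over all 12, permutation p 0.0205, adjusted p 0.0546; rho -0.36). Without FAKi 3, also added after seeing the data, they were 0.63 for Cryab and Hspb2 and -0.34 for Hspb1 and Hspb8. Cryab and Hspb6 correlated at 0.54 (permutation p 0.0718, adjusted p 0.157; rho 0.17), at 0.095 without FAKi 3, 0.93 within vehicle and 0.58 within FAKi tumours.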
